A study of Glycine max with 44 samples.

Results

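The subject is a group of 51 soybean genes that carry a locus symbol (LOC and a number), measured by 63 probe sets, whose signal was lower in aluminium-treated than in untreated root tips at 48 h in each of 2 soybean genotypes. They were chosen from 6999 probe sets (5024 genes) that the array annotation pairs with exactly 1 LOC-named gene, leaving out LOC547581 and LOC778176. A probe set was taken when the mean of its treated arrays minus the mean of its untreated arrays at 48 h, on the scale log2(intensity + 16), was at most -0.8 in PI 416937 and also at most -0.8 in Young. A difference of 0.8 is a 1.74-fold difference in intensity + 16. The 48 h values therefore chose the probe sets, and they are given below as a description with no test. All 63 had a group mean above the array's background and were among the 35289 soybean probe sets tested.

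Aluminium dissolves in acid soils as a cation that is toxic to roots, and its main site of injury is the root tip, where it stops elongation within hours. Tolerant plants limit the damage in part by releasing organic acids that bind the metal outside the cell. Vegetative storage proteins, to which one of the 51 genes belongs, are nitrogen-storing proteins of soybean that accumulate in young shoots and respond to jasmonate, wounding and nitrogen supply.

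The experiment hybridised labelled RNA from tips of the tap root to Affymetrix soybean arrays. Seedlings of PI 416937, labelled aluminium-tolerant, and Young, labelled aluminium-sensitive, were grown hydroponically and received 10 µM Al or 0 µM Al, the second being the untreated control. Tips were taken at 2, 12, 48 and 72 h. Each of the 16 groups of genotype, treatment and time held 2 arrays at 2 h and 3 arrays at the other times, 44 arrays in all. Whether the replicates of a group were grown as separate cultures is not in the labels. The p-values below therefore measure only how far these arrays spread, which may be technical, and precision is limited by how few arrays each group holds.

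Facts of the whole series that bear on these genes are few. The median log2 level of the tested probe sets lay between 7.65 and 7.79 on all 44 arrays, so the arrays were on a common scale. Over the 63 probe sets, the arrays called replicate 1 of PI 416937 at 72 h stood apart: their median level was 7.41 untreated and 7.66 with Al, against 8.68 to 8.90 on the other 4 arrays of these groups. Counts and medians that rest on them are given with and without both. Among defining markers of other tissues, 11 of 12 probe sets for light-exposed tissue (chlorophyll-binding and photosystem genes) were above background in the groups at 12, 48 and 72 h, and so were all 6 probe sets for dividing cells (histone H4 and LOC548079). No probe set matched the vascular or root hair marker names searched. In whole root tips, fewer cells of a type and less RNA per cell cannot be told apart.

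Only 3 of the 51 genes have a name beyond the locus symbol in the RefSeq gene table. LOC547820 is listed as VSP27 and VSPB, a vegetative storage protein. LOC100527498 is listed as GmCUPIN07.3, a name of the cupin family of barrel-shaped proteins that includes seed storage proteins. LOC100802222 is listed as GmCSyGT3. Of the 51 genes, 50 are annotated as protein-coding, and LOC100500398 is a long non-coding RNA. The remaining locus symbols are left here without a role.

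At 48 h the whole set was chosen to be low, and the description of that choice is as follows. The median difference of the 63 probe sets was -1.16 in PI 416937 and -1.16 in Young, against a median of -0.02 over all tested probe sets in both genotypes. The differences ran from -4.77 to -0.80 in PI 416937 and from -3.0 to -0.81 in Young. In both genotypes, 31 probe sets were lower by at least 1 log2 unit and 6 by at least 2. Of the tested LOC probe sets, 0.924% met the rule, close to the 0.805% of all tested soybean probe sets, while 374 LOC probe sets differed by at least 0.8 upwards in both genotypes.

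**Figure D1:**
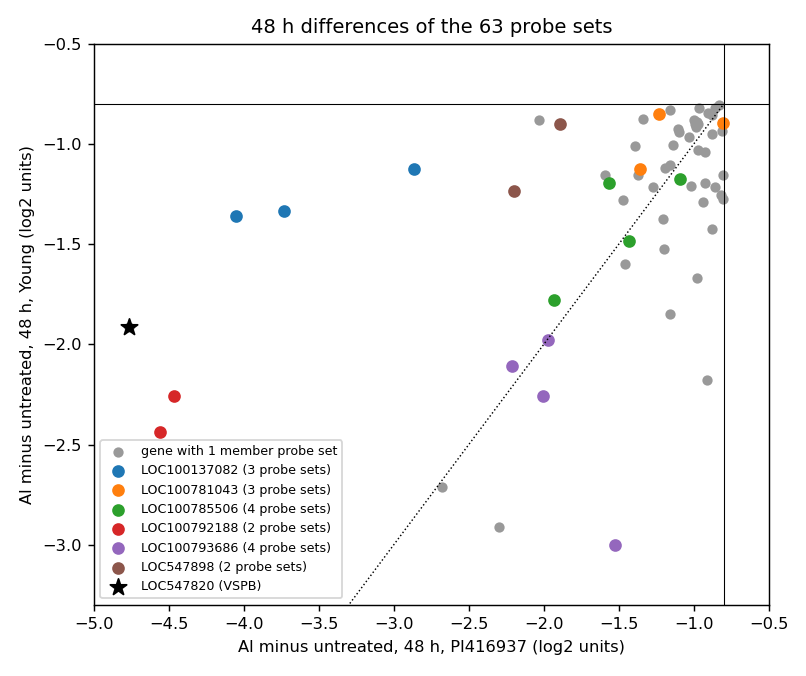
Treated minus untreated difference at 48 h (log2 units) in PI 416937 (horizontal) and Young (vertical) for each of the 63 probe sets; solid lines mark the threshold of -0.8 and the dotted line marks equal differences. Probe sets of genes with several members share a colour, and the vegetative storage protein gene LOC547820 lies farthest left at -4.77 in PI 416937 and -1.91 in Young.

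LOC547820 (VSPB) showed the lowest value in PI 416937. Its log2 levels at 48 h in PI 416937 were 10.50, 9.87 and 8.48 untreated and 4.40, 5.76 and 4.39 with Al, a difference of -4.77. Replicates 1 and 3 of the treated group lay below the background level of 4.41, and the groups did not overlap. In Young the untreated arrays read 4.99, 10.33 and 4.40 and the treated arrays 4.88, 4.71 and 4.39. There the groups overlapped, and 1 untreated array at 10.33 set the difference of -1.91. The gene has 2 other probe sets on the array, which were close to background and differed by -0.17 to -0.03 at 48 h. Their highest group means at any time were 6.13 and 5.74. The VSPB probe set described here ends in _s_at, a suffix for probes shared between transcripts or genes, so its signal may include a related gene.

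LOC100792188 had the lowest mean of both 48 h differences. In PI 416937 it read 8.28, 9.50 and 11.42 untreated and 5.49, 4.81 and 5.22 with Al, a difference of -4.56. In Young it read 10.19, 9.42 and 7.24 untreated and 7.44, 5.42 and 6.68 with Al, a difference of -2.44. The groups were apart in PI 416937 and overlapped in Young, where untreated replicate 3 lay inside the treated range. Each treated Young array was still below the untreated array of the same number. Its second probe set gave -4.47 and -2.26.

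LOC100137082 followed in PI 416937, with untreated levels of 10.91, 11.18 and 10.84 and treated levels of 5.09, 8.58 and 7.10. In Young the untreated levels were 10.44, 8.63 and 7.35 and the treated levels 9.20, 7.03 and 6.11. All 3 treated arrays were below all untreated arrays in PI 416937. The ranges overlapped in Young, although each treated array there was below the untreated array of the same number. Its 3 probe sets ran from -4.05 to -2.87 in PI 416937 and from -1.36 to -1.12 in Young.

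The genes with the next lowest mean differences were nearer to each other in the genotypes. LOC100527699 differed by -2.68 in PI 416937 and -2.71 in Young, and LOC100500325 by -2.30 and -2.91. LOC547898, on its _x_at probe set, differed by -2.20 and -1.23, and the cupin gene LOC100527498 by -1.46 and -1.60. LOC100500325 in Young resembled VSPB in its spread: the untreated arrays read 9.04, 10.88 and 5.14, and the last of these lay below the treated values of 5.93, 5.17 and 5.23.

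LOC100785506 is covered by 4 probe sets, all of them in the set. Its probe set with the lowest mean difference read 10.39, 9.98 and 10.66 untreated and 8.64, 7.67 and 8.94 with Al in PI 416937, and 10.10, 9.25 and 9.64 against 8.42, 7.25 and 7.99 in Young. Treated and untreated arrays did not overlap in either genotype, and replicates were closer together than for VSPB or LOC100792188. Over its 4 probe sets the differences ran from -1.93 to -1.09 in PI 416937 and from -1.78 to -1.17 in Young.

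LOC100793686 is also covered by 4 probe sets, with differences from -2.21 to -1.52 in PI 416937 and from -3.0 to -1.98 in Young. On its probe set with the lowest mean difference (-1.52 and -3.0), Young was lower than PI 416937 by the widest margin. LOC100306554 (-0.91 and -2.18) and LOC100811201 (-1.16 and -1.85) came next. The other probe sets of LOC100793686 had PI 416937 minus Young values of only -0.10 to 0.25. A second probe set of LOC100811201, outside the set, had the reverse order (-1.05 and -0.78), while those of LOC100306554 kept it. VSPB and LOC100137082 had the widest margin the other way. Over the set, 37 probe sets were lower in PI 416937 and 26 in Young.

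Treated and untreated arrays at 48 h did not overlap for 39 of the 63 probe sets in PI 416937 and for 39 in Young, 26 of them in both. Over all tested probe sets the share without overlap on the lower side was 15% in PI 416937 and 9.85% in Young, and nothing is read from this contrast because the rule used it. The probe sets just inside the threshold were LOC100816068 (-0.83 and -0.81), LOC100805260 (-0.80 and -1.16) and LOC100499797 (-0.80 and -1.28). Just outside were LOC100805420 (-0.89 and -0.80), LOC100809917 (-0.80 and -0.89) and LOC100783399 (-0.80 and -1.33).

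Of the control ratios read as measures of RNA integrity, that of glutathione transferase differed with treatment at 48 h. The log2 ratio of 3′ to 5′ probe signal for glutathione transferase was 1.98 to 2.41 untreated and 1.41 to 1.70 with Al in PI 416937, and 1.63 to 2.25 against 0.70 to 1.49 in Young, without overlap in either. For actin and ubiquitin the ranges overlapped in both genotypes, and ubiquitin lay near the background level of 4.41. The mean 5′ level of glutathione transferase was itself 10.3 untreated and 11.1 with Al in PI 416937, and 10.5 against 11.9 in Young. Whether its ratio followed that level was not tested. The summed level of light-exposed tissue markers in Young was 82.5 to 94.5 untreated and 74.7 to 81.0 with Al. In PI 416937 it overlapped, at 79.6 to 99.1 untreated and 78.9 to 99.2 with Al. That of the growing-root markers was 76.8 to 78.5 against 73.7 to 75.8 in PI 416937. In Young it overlapped, at 74.6 to 76.8 against 72.9 to 76.9. Their part in the 48 h differences was not tested.

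Several probe sets of a gene are not independent measurements of the condition. LOC100137082 and LOC100781043 each had 3 of 3 probe sets in the set, and LOC100792188 and LOC547898 each had 2 of 2. Of the 63 probe sets, 16 carry a suffix that marks probes shared between transcripts or genes, so their signal may include a related gene. Another 13 probe sets of 8 of these genes missed the rule, of which 8 were below 0 in both genotypes and 5 passed the threshold in 1 genotype. LOC100791698 disagreed with itself: 1 probe set was in the set, while its other 3 differed by 0.00 to 0.32. No pair of the genes lay next to each other in the RefSeq gene order. The closest were LOC100814865 and LOC100306554, with 15 other genes between them.

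The arrays of 2, 12 and 72 h took no part in the choice, and they show how the same probe sets behaved at other times of treatment. A probe set is called where limma gives a Benjamini-Hochberg adjusted p under 0.05 over all 35289 tested probe sets. In Young, treated roots were low at 12 and 72 h as well, for most of the set. In PI 416937, treated roots were slightly low at 12 h and level with untreated roots at 72 h. At 2 h neither genotype showed the set low.

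**Figure D2:**
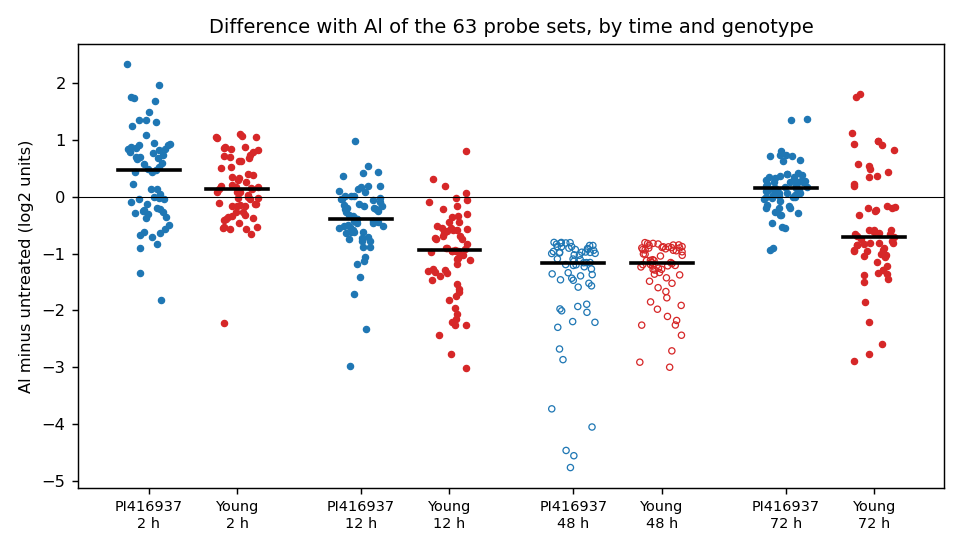
Treated minus untreated difference (log2 units) of the 63 probe sets in each genotype at each time; each point is a probe set and each bar the median. Open points at 48 h are the values that chose the set, and the medians at the other times were 0.47, -0.38 and 0.15 in PI 416937 and 0.14, -0.93 and -0.70 in Young.

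In Young at 12 h, 59 of the 63 probe sets were below 0, 93.7% of the set against 51.2% of all tested. The median was -0.93 against a median near 0 for all tested probe sets. The threshold of -0.8 was passed by 36 probe sets of 28 genes, 57.1% of the set, where 2.93% of all tested probe sets passed it. Treated and untreated arrays did not overlap on the lower side for 19, against 2.63% of all tested probe sets, and on the higher side for 0, against 3.94%. The test called 1 probe set lower and 0 higher, with 0.0113% and 0.0708% of all tested probe sets called in these directions. Without a correction, 26 of the 63 had a p under 0.05, where 8.09% of all tested had.

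The called gene was LOC100306243, which read 9.55, 7.86 and 9.05 in untreated and 7.33, 5.40 and 6.97 in treated Young roots at 12 h. Each treated array lay below each untreated one. It fell by 2.25 ± 0.44 (SE, n = 3 and 3; limma, adjusted p = 0.0339), a 4.76-fold decrease. The call was lost without replicate 1 or 3 of the untreated group or replicate 2 of the treated group, and also with a pseudocount of 1 (limma, adjusted p = 0.0611) or with the compared groups fitted alone (limma, adjusted p = 1), with its difference between -2.73 and -1.67 over all the alternatives. In PI 416937 at 12 h the same gene read 8.18, 8.24 and 7.75 untreated and 6.76, 8.48 and 7.78 with Al, ranges that overlapped, and the test of the difference between the genotypes gave 1.87 ± 0.63 (SE; limma, unadjusted p = 0.00572, not called).

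Other probe sets had larger 12 h differences in Young with a wider spread and were not called. LOC100776299 differed by -3.01 ± 1.07 (SE; limma, adjusted p = 0.359) and LOC100306554 by -2.78 ± 0.77 (limma, adjusted p = 0.151). LOC100306554 read 11.11, 8.35 and 10.07 untreated and 7.31, 6.55 and 7.35 with Al, without overlap. Of the 4 probe sets of LOC100785506, that with the lowest mean difference at 48 h came nearest to a call at -1.82 ± 0.44 (limma, adjusted p = 0.0912). GmCSyGT3 (LOC100802222) read 9.37, 8.00 and 9.07 untreated and 7.13, 7.44 and 7.51 with Al, a difference of -1.46 ± 0.55 (limma, adjusted p = 0.393). These genes had no overlap of treated and untreated arrays, and none was called.

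VSPB had no common direction among the treated Young arrays at 12 h. They read 13.96, 8.21 and 5.0 against 9.88, 11.06 and 9.78 untreated, so the treated range enclosed the untreated one. Replicate 1, the array at 13.96, was also high for LOC100500325, at 12.93 against 5.39 and 7.58, and for LOC100527699, at 13.00 against 7.32 and 8.08. The same array had a lower ratio of 3′ to 5′ probe signal for actin, a measure of RNA integrity, at 7.46 log2 units against 8.49 and 8.42 on the other treated arrays. For glutathione transferase that ratio was 0.0032 against 1.75 and 1.87. Without replicate 3 of the same treated group, 12 members were called at 12 h. The share of all tested probe sets called in that fit is not given here, so nothing is read from this count. The part of RNA quality in these values was not tested.

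In Young at 72 h, 47 of the 63 probe sets were below 0, 74.6% of the set against 60.6% of all tested. The median was -0.70 against -0.02 for all tested probe sets. The threshold of -0.8 was passed by 29 probe sets of 22 genes, 46.0% of the set against 2.92% of all tested, and 8 probe sets differed by at least 0.8 upwards, 12.7% against 7.58%. Treated and untreated arrays did not overlap on the lower side for 40, where 28.2% of all tested probe sets were apart, and on the higher side for 7, where 16.6% were. The test called 4 probe sets of 3 genes lower and 0 higher, with 0.7% and 3% of all tested probe sets called in these directions.

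LOC100793686 had 2 of the 4 calls. On the probe set whose name ends in _x_at it read 9.39, 9.24 and 9.33 untreated and 6.92, 6.37 and 5.99 with Al, and it fell by 2.89 ± 0.80 (SE, n = 3 and 3; limma, adjusted p = 0.0374), a 7.43-fold decrease. On the probe set ending in _s_at it fell by 2.58 ± 0.71 (limma, adjusted p = 0.0359). Its other 2 probe sets differed by -2.77 ± 0.85 (limma, adjusted p = 0.0620) and -2.20 ± 1.10 (limma, adjusted p = 0.274). All 4 probe sets had treated arrays below all untreated arrays. In PI 416937 at 72 h the first of these probe sets read 5.27, 8.79 and 8.10 untreated and 5.98, 8.36 and 9.01 with Al, with replicate 1 low in both groups and no separation.

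LOC100500123 read 10.44, 10.46 and 10.36 in untreated Young roots at 72 h and 9.58, 8.22 and 9.32 with Al. It fell by 1.38 ± 0.40 (SE; limma, adjusted p = 0.0474). LOC100815850 read 9.58, 9.59 and 9.65 untreated and 8.92, 7.83 and 8.91 with Al, and fell by 1.05 ± 0.31 (limma, adjusted p = 0.0472). For both genes the untreated arrays were close together and the second treated array was the lowest. A second probe set of LOC100815850 was not in the set and differed by only -0.25 and 0.03 at 48 h. Leaving out any 1 of the 3 untreated arrays took the count at 72 h from 4 to 0, and so did leaving out replicate 2 or replicate 3 of the treated arrays. With the compared groups fitted alone 20 were called lower and 1 higher, and with no filter on low values 2 were called lower. LOC100500123 and LOC100815850 were called in neither of these settings, and LOC100500123 also lost its call with no trend in the limma fit. The _s_at probe set of LOC100793686 lost its call with a pseudocount of 1. Shares of all tested probe sets called in these fits are not given here, so the counts show only how far the calls depend on the setting.

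**Figure D3:**
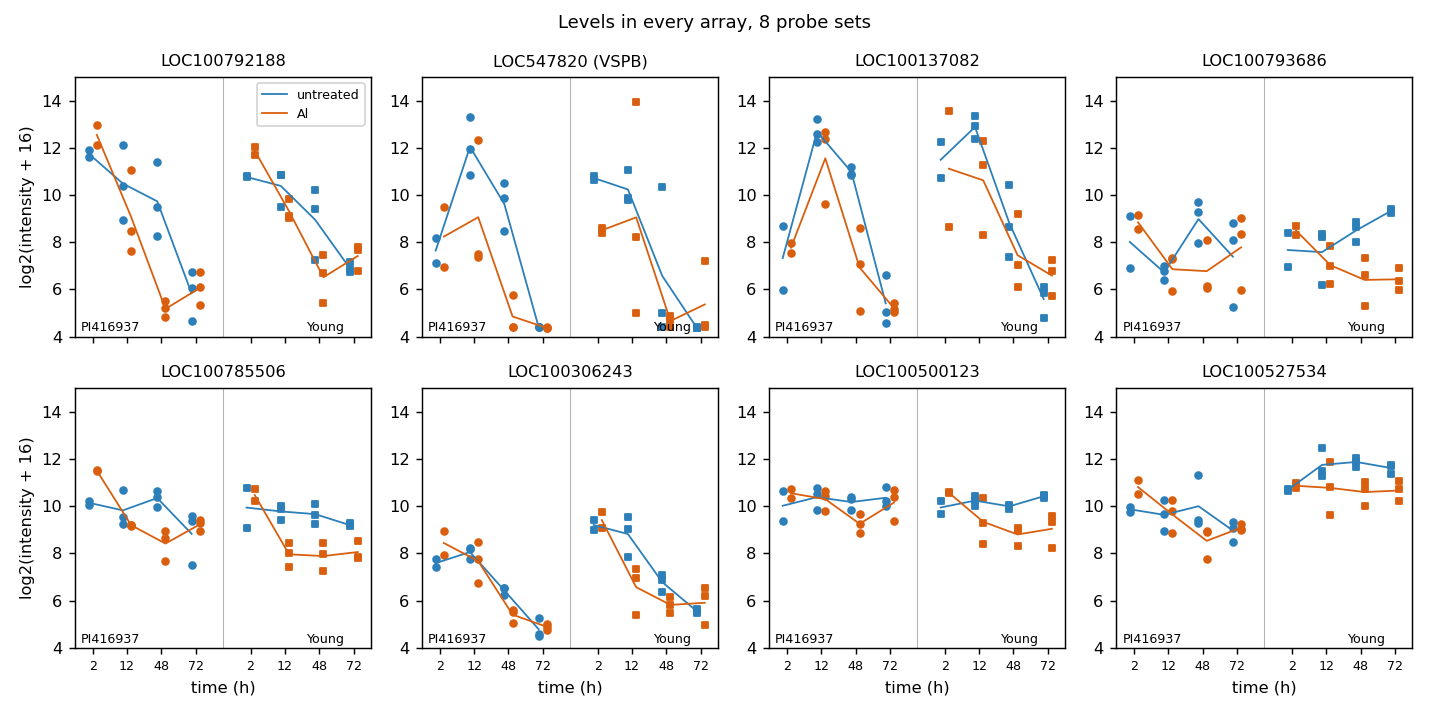
Level of 8 probe sets on every array, as log2(intensity + 16), against time; circles are PI 416937 and squares Young, blue untreated and orange with Al, and lines join group means. LOC100793686 is shown by its _x_at probe set and LOC100785506 by its probe set with the lowest mean difference at 48 h; the untreated Young arrays of LOC100793686 at 72 h, 9.24 to 9.39, lie above all treated ones, 5.99 to 6.92.

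In Young at 72 h, the 7 probe sets without overlap on the higher side with Al were of 5 genes: LOC547898, LOC100137082, LOC100500325, LOC100811362 and LOC100527808. Of the 7, 6 were called lower in untreated Young roots at 72 h than at 12 h, and LOC100527808 was not. The untreated 72 h arrays enter both comparisons, so this is a description with no test. LOC547898, on its _s_at probe set, read 9.90, 10.57 and 10.63 untreated and 11.61, 13.31 and 11.66 with Al, a difference of 1.82 ± 1.01 (SE; limma, adjusted p = 0.335). It was not called, and at 48 h its treated mean had been the lower one.

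The marker list for light-exposed tissue overlapped between treatments in Young at 12 h and was lower with Al, without overlap, at 72 h. Its summed log2 level over 12 probe sets was 75.1 to 101 on untreated and 72.6 to 76.6 on treated Young arrays at 12 h, and 84.5 to 88.8 against 76.8 to 81.4 at 72 h. None of the 12 was called by limma at either time, with 3 and 2 at an unadjusted p under 0.05, and 10 and 11 of them were below 0. The 8 growing-root probe sets (expansins and beta-tubulins) summed to 74.1 to 74.6 on untreated and 70.3 to 72.9 on treated Young arrays at 72 h, where 7 of them were below 0 and 1 was called lower. The sum for the 6 dividing-cell probe sets at 72 h was 58.7 to 59.3 untreated and 59.4 to 63.3 with Al. At 72 h the log2 ratio of 3′ to 5′ signal was 1.90 to 2.03 untreated and 1.07 to 1.63 with Al for glutathione transferase, and 8.66 to 8.82 against 8.30 to 8.60 for actin, without overlap. For ubiquitin, near background, the ranges overlapped (0.11 to 0.46 and 0.08 to 0.35). The mean 5′ level of glutathione transferase was itself 9.73 untreated and 11.8 with Al. The part of these markers and of RNA quality in the result was not tested.

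PI 416937 at 12 h had 49 of the 63 probe sets below 0, 77.8% of the set against 53.5% of all tested, with a median of -0.38. The threshold of -0.8 was passed by 9 probe sets of 6 genes, 14.3% of the set against 0.819% of all tested probe sets. Upwards, 1 differed by at least 0.8, 1.59% of the set against 2.61%. Treated arrays lay below all untreated arrays for 7, against 5.3% of all tested, and above them for 0, against 3.58%. The test called 0, with 0.00283% of all tested called lower and 0% higher, and 4 of the 63 had an unadjusted p under 0.05 by limma, where 4.49% of all tested had. LOC778146 had the smallest p: it read 11.95, 11.31 and 11.72 untreated and 10.78, 10.84 and 11.04 with Al, without overlap, a difference of -0.77 ± 0.27 (SE; unadjusted p = 0.00791 by limma, not called after adjustment). VSPB had the lowest difference, -2.98 ± 1.46, from untreated levels of 11.93, 13.33 and 10.87 and treated levels of 7.37, 12.32 and 7.48, of which the second lay inside the untreated range.

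At 72 h in PI 416937, 20 of the 63 were below 0, 31.7% of the set against 41.8% of all tested, and the median was 0.15. The threshold of -0.8 was passed by 2 probe sets, 3.17% of the set against 1.52% of all tested, and 3 differed by at least 0.8 upwards, 4.76% against 0.289%. Treated arrays were apart below for 1 and above for 3, against 1.53% and 3.59% of all tested. The test called 0 of the set, with 0.00283% of all tested called lower and 0.0368% higher, and 1 of the 63 had an unadjusted p under 0.05 by limma, where 2.56% of all tested had. That gene, LOC100816068, read 7.83, 8.01 and 8.12 untreated and 9.37, 8.41 and 8.39 with Al, higher on every treated array. Without replicate 1 of both groups, which stood apart over the set, the count stayed at 0, the median was -0.03 and 34 of the 63 were below 0. Then 0 probe sets passed -0.8 and 4 differed by at least 0.8 upwards. The difference of LOC100816068 was then 0.34 ± 0.40 (SE; limma, unadjusted p = 0.403), and the 1 probe set with an unadjusted p under 0.05 by limma was of LOC547898.

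At 2 h, with 2 arrays a group, 39 of 63 probe sets were above 0 in PI 416937 and 37 in Young. Those below 0 made up 38.1% and 41.3% of the set, against 53.6% and 51.2% of all tested. The medians were 0.47 and 0.14. In PI 416937, 20 probe sets of 13 genes differed by at least 0.8 upwards, 31.7% of the set against 5.47% of all tested, and 4 by at least 0.8 downwards, 6.35% against 2.47%. Untreated replicate 2 of PI 416937 was low here: the median over the 63 probe sets was 9.37 and 8.84 on the untreated arrays and 9.51 and 9.38 with Al. How far that array set the upward differences was not tested. In Young, 10 probe sets of 7 genes differed by at least 0.8 upwards, 15.9% of the set against 1.94% of all tested, and 1 downwards, 1.59% against 1.62%. Treated arrays were above all untreated arrays for 17 in PI 416937 and 10 in Young, where 15.4% and 12.9% of all tested were, and below them for 5 and 8, where 18.6% and 13.3% were. The test called 0 of the set in PI 416937, with 0.108% of all tested called lower and 0.904% higher, and 0 in Young, with 0.0567% and 0.0482%. By limma, 7 and 1 of the 63 had an unadjusted p under 0.05, where 10.2% and 3.23% of all tested had.

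The 2 h values of LOC100785506 in PI 416937 ran opposite to those at 12 and 48 h. On its probe set with the largest 2 h difference it read 10.01 and 6.97 untreated and 10.78 and 10.88 with Al in PI 416937 at 2 h, a difference of 2.34 ± 0.79 (SE; limma, adjusted p = 0.196). Its 4 probe sets ran from 1.33 to 2.34, all with treated arrays above untreated ones, and none was called. LOC100500176 read 9.15 and 10.02 untreated and 10.04 and 10.95 with Al, where the higher untreated array nearly reached the lower treated one. LOC100527444 was the lowest, at -1.81 ± 0.64 (limma, adjusted p = 0.242).

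**Figure D4:**
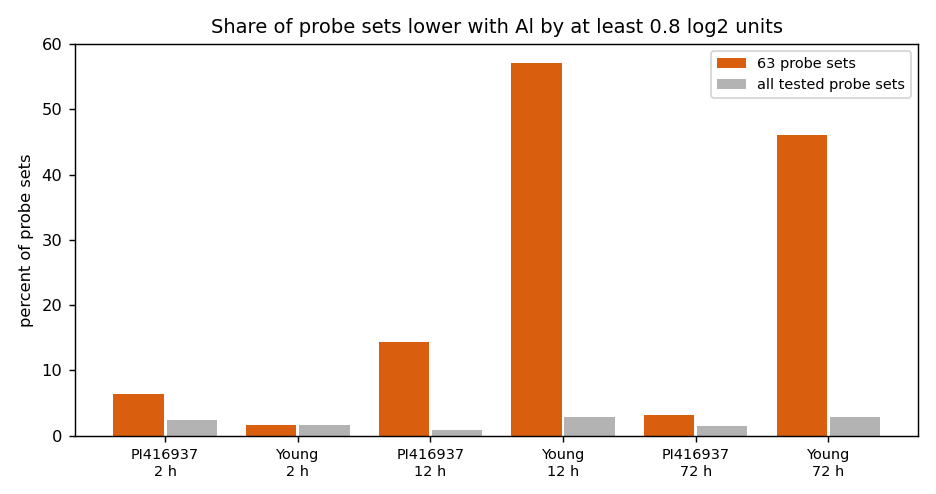
Percent of probe sets whose treated minus untreated difference was -0.8 or lower at 2, 12 and 72 h, for the 63 probe sets and for all 35289 tested. In Young the shares of the 63 were 57.1% at 12 h and 46.0% at 72 h, against 2.93% and 2.92% of all tested probe sets.

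Whether the genotypes differed in their response was tested as an interaction, the response in PI 416937 minus that in Young. The test called 0 of the 63 at 2, 12 and 72 h. Of all tested probe sets, 0.0595% were called lower and 0.298% higher at 2 h, 0% and 0% at 12 h, and 1.45% and 0.261% at 72 h. The median interaction was 0.10 at 2 h, 0.59 at 12 h and 0.94 at 72 h, against medians close to 0 for all tested probe sets, and 2, 6 and 19 of the 63 had an unadjusted p under 0.05 by limma, where 6.9%, 3.48% and 14.2% of all tested had. Of the 63, 39, 48 and 46 had a response that was higher (less negative) in PI 416937. Interactions below 0 made up 38.1%, 23.8% and 27.0% of the set, against 52.1%, 53.5% and 38.5% of all tested. At 72 h 35 probe sets were above 0 in PI 416937 and below 0 in Young, and 19 without replicate 1 of both PI 416937 groups.

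The smallest p for the interaction at 72 h belonged to LOC100816068, whose Young arrays read 8.03, 8.08 and 8.23 untreated and 7.61, 7.19 and 7.08 with Al. Its interaction was 1.56 ± 0.48 (SE; limma, adjusted p = 0.0916). LOC100500176 followed at 1.11 ± 0.36 (limma, adjusted p = 0.112), and LOC100793686, on its _x_at probe set, reached 3.28 ± 1.14 (limma, adjusted p = 0.147). In each the treated Young arrays were below the untreated ones while the PI 416937 groups were level or higher with Al. Without replicate 1 of both PI 416937 groups the median interaction at 72 h was 0.69, the count stayed at 0 and 9 of the 63 had an unadjusted p under 0.05 by limma. The interactions of LOC100816068, LOC100500176 and LOC100793686 were then 1.16 ± 0.52, 0.80 ± 0.36 and 3.13 ± 1.02 (SE; limma, none called).

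Untreated roots of the genotypes differed for 3 of the 63 probe sets, over the mean of 2, 12 and 72 h. LOC100527534 was lower in PI 416937: it read 9.68, 10.28 and 8.94 there at 12 h and 11.29, 12.46 and 11.51 in Young, and 8.48, 9.09 and 9.35 at 72 h against 11.38, 11.76 and 11.72. The difference, PI 416937 minus Young, was -1.86 ± 0.30 (SE; limma, adjusted p = 0.000117). At 12 and 72 h no array of one genotype reached the range of the other.

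LOC100306243 was also lower in PI 416937, by -1.05 ± 0.28 (limma, adjusted p = 0.0241), and LOC100803418 was higher, by 1.09 ± 0.28 (limma, adjusted p = 0.0219). Of all tested probe sets 1.69% were called lower and 1.86% higher in PI 416937, so 2 lower and 1 higher of 63 is near that background. The call of LOC100527534 held in every one of 22 alternatives, including each array left out in turn. LOC100306243 lost its call in 4 of them, including without replicate 2 of PI 416937 at 2 h or replicate 1 of Young at 2 or 12 h. LOC100803418 lost its call in 7, including with the compared groups fitted alone and without replicate 2 of PI 416937 at 2, 12 or 72 h, replicate 3 of PI 416937 at 72 h or replicate 1 of Young at 2 h. The other setting in each count is the replicate block given with the processing alternatives.

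A part of the set also differed between 12 and 72 h in untreated roots. Growth time and anything else that differed between the harvests cannot be told apart. Between 12 and 72 h, untreated PI 416937 roots had 22 probe sets of 18 genes called lower and 0 higher, with 12.9% and 11.1% of all tested probe sets called in these directions. Untreated Young roots had 16 probe sets of 12 genes called lower and 0 higher, with 7.35% and 9.99% of all tested. The 16 were all among the 22, so that they made up 100% of the Young list and 72.7% of the PI 416937 list. The median over the set was -0.80 in PI 416937 and -0.36 in Young, against medians close to 0 for all tested probe sets. Without replicate 1 of both PI 416937 groups at 72 h, 18 were called lower and 1 higher in PI 416937, with a median of -0.33. With the compared groups fitted alone, 11 were called lower in PI 416937, and in Young 27 were called lower and 5 higher. Shares of all tested probe sets called in these alternative fits are not given here, so these counts show only how far the calls depend on the setting.

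**Figure D5:**
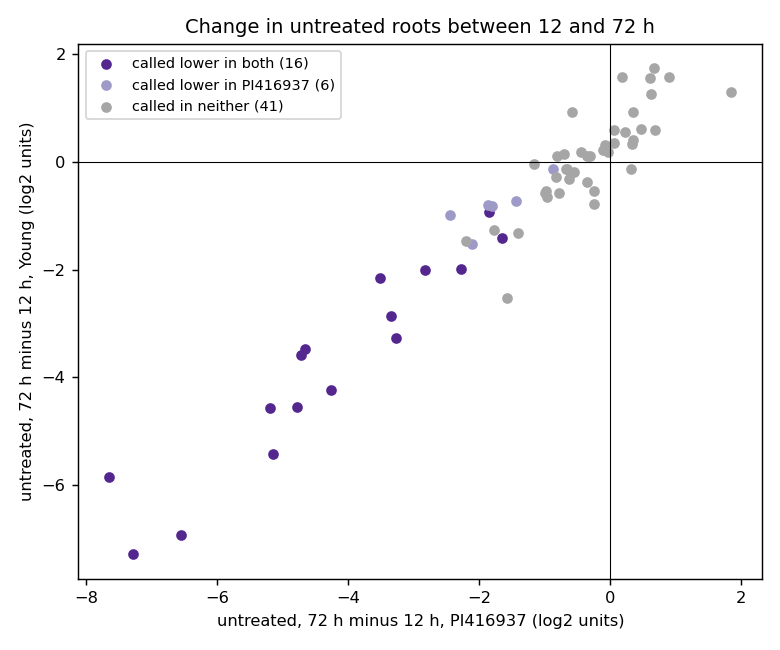
Difference between untreated roots at 72 h and 12 h (log2 units) in PI 416937 (horizontal) and Young (vertical) for the 63 probe sets. Dark points (16) were called lower in both genotypes, light purple points (6) in PI 416937 and grey points (41) in neither; the lowest points reach -7.65 in PI 416937 and -7.30 in Young.

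VSPB was at background in untreated roots by 72 h. It read 11.93, 13.33 and 10.87 at 12 h and 4.40, 4.40 and 4.40 at 72 h in PI 416937, and 9.88, 11.06 and 9.78 against 4.37, 4.37 and 4.42 in Young. Taking the background level as the floor, the signal of its _s_at probe set was at least 198-fold lower in PI 416937 (limma, adjusted p = 0.000615). In Young it was at least 56.6-fold lower (limma, adjusted p = 0.0072). No further decrease with Al could be measured at 72 h, when the treated arrays read 4.34, 4.40 and 4.34 in PI 416937 and 4.39, 7.21 and 4.49 in Young.

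LOC100137082 fell over the same interval by 7.28 ± 1.09 in PI 416937 (SE; limma, adjusted p = 6.15e-05) and fell by 7.30 ± 1.09 in Young (limma, adjusted p = 0.000113). Its untreated levels were 12.26, 13.21 and 12.60 at 12 h and 6.61, 5.04 and 4.57 at 72 h in PI 416937, and 12.93, 12.39 and 13.33 against 4.80, 6.12 and 5.85 in Young. LOC100306243 fell by 3.27 ± 0.44 (limma, adjusted p = 2.3e-05) in PI 416937 and fell by 3.26 ± 0.44 in Young (limma, adjusted p = 3.76e-05). LOC100792188 fell by 4.65 ± 0.81 (limma, adjusted p = 0.000276) in PI 416937 and fell by 3.47 ± 0.81 in Young (limma, adjusted p = 0.00492). In these genes no array at 72 h reached the 12 h range of its genotype. With the compared groups fitted alone LOC100792188 was not called in PI 416937 (limma, adjusted p = 0.0656).

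The other genes called lower in both genotypes were LOC100500325, LOC547898, LOC100775672, LOC100791698, LOC100527778, LOC100811362, LOC100305542 and LOC778146. Those called in PI 416937 and not in Young were LOC100802222 (GmCSyGT3), LOC100803418, LOC100782933, LOC100817837, LOC100305478 and LOC100305564, and the difference between genotypes was not tested for this interval. LOC100782933 read 13.51, 13.74 and 13.68 at 12 h and 10.36, 12.72 and 13.55 at 72 h in PI 416937, where replicate 1 was far below the other arrays. The calls of LOC100802222, LOC100782933, LOC100817837 and LOC100305564 were lost without that array.

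Markers of dividing cells were lower at 72 h than at 12 h in the same untreated arrays. The summed log2 level of the 6 probe sets was 63.6 to 68.0 at 12 h and 55.1 to 61.8 at 72 h in PI 416937, and 64.5 to 67.9 against 58.7 to 59.3 in Young. Of the 6, limma called 4 lower in PI 416937 and 1 in Young, where 12.9% and 7.35% of all tested probe sets were called lower. The part of this change in the result was not tested.

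The 72 h response of Young was uneven between probe sets that were and were not called lower at 72 h than at 12 h in untreated roots. Of the 41 probe sets (33 genes) called in neither genotype, 39 were below 0 in Young at 72 h, with a median of -0.93. Of the 22 called in either, 8 were below 0, with a median of 0.36. In PI 416937 at 72 h both groups had a median of 0.15, and of -0.04 and -0.01 without replicate 1 of both treatments. At 12 h in Young, where the untreated 12 h arrays serve both comparisons, 40 of the 41 and 19 of the 22 were below 0, with medians of -0.93 and -0.89. The 41 and the 22 were separated by values of the untreated 12 and 72 h arrays, which also enter the differences with Al, so these are descriptions with no test.

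Levels over all 16 groups summarise the set. The median over the 63 probe sets of untreated group means in PI 416937 was 8.94 at 2 h, 9.63 at 12 h, 9.70 at 48 h and 8.14 at 72 h, and with Al it was 9.34, 9.07, 8.24 and 8.28. In Young the untreated medians were 9.20, 9.69, 9.14 and 8.96 and the treated medians 9.71, 8.55, 7.89 and 8.06. Untreated roots had their lowest mean at 72 h for 41 of the 63 probe sets in PI 416937 and for 29 in Young. For 30 probe sets in PI 416937 the untreated mean at 72 h was at or under the treated mean at 48 h, and for 14 in Young. Without replicate 1 of both PI 416937 groups at 72 h their medians were 8.45 untreated and 8.88 with Al, and the 41 and 30 probe sets became 34 and 20.

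In Young, 45 of the 63 probe sets were below 0 with Al at both 12 and 72 h, 71.4% of the set against 37.6% of all tested. The threshold of -0.8 was passed at both times by 18, 28.6% against 0.635%. Treated and untreated Young arrays were apart on the lower side at both times for 14, 22.2% against 1.21%. LOC100811201 was one of the genes below 0 throughout, with -2.15 ± 0.70 at 12 h (SE; limma, adjusted p = 0.271), -1.85 at 48 h and -1.85 ± 0.70 at 72 h (limma, adjusted p = 0.134). LOC100306554 gave -2.78, -2.18 and -1.44 at these times in Young, and -1.19, -0.91 and 0.41 in PI 416937. Neither gene was called at any time with Al outside 48 h.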

How the data were processed

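Total RNA from root tips was hybridised to 44 single-colour Affymetrix soybean arrays, per the labels' protocols. The authors deposited 1 table of normalised linear intensity values per probe set and array, and its summarisation and background method is not given in the sources used here. Values were analysed as log2(intensity + 16). Probe sets for soybean (37593) were tested where at least 1 group mean exceeded the background, set as the 95th percentile of the mean levels of the array's 23350 probe sets for other organisms (4.41 on the log2 scale), which left 35289.

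Gene names came from the platform annotation and the RefSeq gene table of assembly Glycine_max_v4.0, which was used for names and gene order and matched all 51 genes. A single model of 16 group means over 44 arrays was fitted with limma 3.58.1 in R 4.3.3 (eBayes with a trend, 28 residual degrees of freedom), two-sided, with Benjamini-Hochberg adjustment within each comparison. The procedure was tested on simulated data. The tests reported used 12 comparisons with no 48 h array.

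The members and lists were chosen with earlier results of these data known. The text names the 10 genes with the lowest mean 48 h difference, up to 8 called probe sets per comparison (otherwise the 2 with the smallest p), the probe sets next to the threshold, genes with several members or a synonym, and those with extreme levels or genotype contrasts. Genes outside this rule (LOC100776299, LOC100811362, LOC100527808, LOC548079 and the full list called lower in untreated roots at 72 h than at 12 h) were named after their values were seen. Lists for WRKY factors, expansins with beta-tubulins, aquaporins and nodules were also measured. In Young, treated and untreated arrays with the same replicate number deviated together at 12 and 48 h, and the labels do not say what the numbers mark. There each same-numbered pair of deviations correlated at 0.24 to 0.29 and at 0.38 to 0.48. The value was 0.35 in Young at 2 h and ran from -0.27 to 0.39 in the other genotype and time groups. The ranges compared at 48 h and the main fit take no account of this correlation. Untreated arrays of the genotypes with the same number correlated at 0.24 to 0.41 at 12 h, and at -0.35 at 2 h and -0.13 to 0.09 at 72 h, so the numbers were not taken to pair the genotypes.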

Additional observations from a re-analysis of the deposited data

How the results depend on the processing

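Counts of the 63 probe sets called were recomputed with a pseudocount of 1, no filter on low values, quantile normalisation, no trend, the compared groups alone, the replicate number as a block, and each array left out. No called difference changed sign. The counts under the alternatives, here and above, are printed without the share of all tested probe sets called. They show only how far the calls depend on the setting. In Young at 12 h the count of 1 became 0 with a pseudocount of 1 and 0 with the compared groups alone, and stayed 1 with the replicate block. In Young at 72 h the count of 4 became 2 with no filter, 21 with the compared groups alone and 10 with the replicate block. The block gave 3 for the interaction at 72 h (against 0), 1 for the untreated genotype difference (against 3, with LOC100306243 and LOC100803418 not called) and 0 for untreated PI 416937 at 72 against 12 h (against 22, or 11 with the compared groups alone), where same-numbered arrays did not deviate together. Untreated Young at 72 against 12 h gave 32 with the compared groups alone (against 16). The cause of these shifts was not tested. With single arrays left out, the counts ranged from 0 to 2 in PI 416937 at 2 h, 0 to 12 in Young at 12 h, 0 to 6 in Young at 72 h, 0 to 1 and 0 to 3 for the interaction at 2 and 72 h, 1 to 3 for the untreated genotype difference, 19 to 26 for PI 416937 and 12 to 14 for Young in the 72 against 12 h comparison, and were 0 throughout for PI 416937 at 12 and 72 h, Young at 2 h and the interaction at 12 h. Leaving out replicate 1 of both PI 416937 groups at 72 h was chosen after seeing the data. Groups of 2 or 3 arrays and probe sets near background limit what could be called.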

Other observations

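Gene lists measured beside the set were tested with Al at 12 and 72 h. The annotation pairs 104 tested probe sets with WRKY transcription factors, plant regulators of stress genes. In Young, limma called 4 of them higher at 12 h and 13 at 72 h, where 0.0708% and 3% of all tested probe sets were called higher, and 0 lower. In PI 416937 it called 0 at either time, with 7 at an unadjusted p under 0.05 at each, and the WRKY median at 72 h was -0.19 there and 0.29 in Young. At 48 h, outside the tests reported here, the WRKY probe sets were mostly higher with Al in both genotypes. Their median was then 0.55 in PI 416937 and 0.35 in Young, and 12 and 27 of the 104 were below 0, where 59.3% and 60.2% of all tested were. The 8 probe sets for expansins and beta-tubulins, proteins of the growing wall and the cytoskeleton, had medians of -0.13 at 12 h and -0.20 at 72 h in Young, with 1 called lower at 72 h, where 0.7% of all tested were. In PI 416937 their medians were 0.10 and 0.11 with 0 called and 0 at an unadjusted p under 0.05. The 32 aquaporin probe sets, for water channels, had medians of -0.11 and -0.10 in Young and 0.02 and 0.00 in PI 416937. Limma called 0 of them, with 4 and 4 at an unadjusted p under 0.05 in Young and 3 and 1 in PI 416937. The 4 tested nodule probe sets had medians of -0.02 and -0.12 in Young and -0.05 and -0.34 in PI 416937, with 0 called and 1 at an unadjusted p under 0.05, in Young at 72 h.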
